A study of Mus musculus with 2 samples.

Results

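CTCF is a zinc-finger protein that binds a long DNA motif and, together with cohesin, holds chromatin loops and marks boundaries between domains. Much of the mouse genome consists of repeats, copies of mobile elements that have spread to many places. Some short interspersed elements (SINEs) of rodents, the B2 group among them, are known to carry a sequence that CTCF binds, so a copy can bring a binding site to the place where it lands. The peaks described here are the CTCF peaks whose highest point, the summit, lies on a soft-masked base, that is, a base that the genome sequence file prints in lower case to mark it as repeated sequence. Of the 63856 peaks of the authors' optimal list on chromosomes 1 to 19, 14114 had such a summit, and they are called members below. The other 49742 peaks had a summit on an upper-case base and serve for comparison.

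The data are 2 chromatin immunoprecipitation sequencing libraries made with a CTCF antibody from kidney tissue of newborn B6NCrl mice, at an age of 0 days. Both libraries form 1 group, without any genotype or treatment named, and the labels give them the same biosample and donor, so the spread between them may be technical. The optimal list holds 65482 peaks in all and was made by the authors from both libraries. As a stand-in for each library alone, its own 65482 highest-signal peaks were taken and are called its upper set. The lists hold no read counts, so the depth is unknown. Which tool masked the genome copy is not given in the sources used here, and no repeat annotation was used, so repeats are described by their sequence. No p-value is given, because there is no second group and peaks are not replicates. Square brackets give 95% Wilson intervals, which cover only counting error.

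The sequences that carried most members came from 1 family of related repeats. A CTCF matrix of 19 bases was learned from 20921 sites of the other peaks on odd-numbered chromosomes, with every soft-masked base left out, so that no member entered it. Families were then built from the members' own sequences without reference to known elements. Building began with members that matched this matrix, aligned on their match. The largest, called the motif family here, came in 2 forms. Form 1 is given by its larger consensus (5234 of its 6708 members; the other 1474 fit a shorter one with the same motif). It aligned to form 2 from the fourth base of the motif to its 3′ end, with 86.7% identity over 128 columns, and not 5′ of it. The lines below give the matrix's most frequent bases and the consensus of each form and of 2 smaller families, 5′ to 3′ along the strand that holds the motif. Capitals mark the match to the matrix, and the second family's consensus holds none.
Matrix: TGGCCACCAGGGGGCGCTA
Motif family, form 1: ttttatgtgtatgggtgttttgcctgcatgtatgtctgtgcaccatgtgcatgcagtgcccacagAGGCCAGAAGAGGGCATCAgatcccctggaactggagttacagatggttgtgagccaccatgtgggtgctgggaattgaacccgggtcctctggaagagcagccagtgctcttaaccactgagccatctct
Motif family, form 2: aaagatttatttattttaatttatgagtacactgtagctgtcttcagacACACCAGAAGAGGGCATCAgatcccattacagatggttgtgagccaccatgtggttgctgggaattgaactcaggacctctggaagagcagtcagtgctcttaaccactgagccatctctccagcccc
The second family: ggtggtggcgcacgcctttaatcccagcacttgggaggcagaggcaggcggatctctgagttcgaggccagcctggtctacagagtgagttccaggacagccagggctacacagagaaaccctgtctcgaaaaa
The third family: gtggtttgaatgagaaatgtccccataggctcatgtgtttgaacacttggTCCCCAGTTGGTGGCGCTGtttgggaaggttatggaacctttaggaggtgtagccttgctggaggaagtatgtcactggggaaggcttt

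The motif of form 1 spans bases 66 to 84 of its 196-base consensus, scored 17.0 on the matrix (log2 odds), and differs from the matrix's most frequent bases at 7 of 19 positions. Counted from 1 at the motif's 5′ end, with the matrix base first, these are T1A, C7G, C8A, G11A, G16A, C17T and T18C. The motif of form 2 spans bases 50 to 68 of 177 and scored 15.3. It has the same 7 differences plus G2C and G3A, 9 in all. The largest loss of score in both comes from C17T, which costs 2.81. The third family's motif scored 15.8, and its largest single loss is A9T, at 4.13. On the strand opposite the motif, the larger consensus of form 1 and that of form 2 carry the letters GTTCNANNC, the core of the B box of RNA polymerase III promoters from which SINEs are copied, at bases 138 to 146 of form 1 and 111 to 119 of form 2. The second family's consensus holds them too, at bases 60 to 68 of the strand shown, and the shorter consensus of form 1 and that of the third family do not. These letters, searched on both strands within 100 bp of the summit, lay beside 25% of members, 6.4% of other peaks and 10.5% of all optimal peaks; among members of the motif family the share was 30.8%.

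Single copies in the genome show what stands behind the peaks. The 3 highest-signal members with a match in each form and in the third family are given below as examples, each with 5 bases on either side of the motif. They had to hold a match and align to a family, so the bases they share follow in part from that choice. Capitals mark the 19-base match, and names are those of the protein-coding gene with the nearest transcription start site (TSS).
Form 1, Tmco5b: catggAGGCCAGAAGAGGGCATCAgatcc
Form 1, Nedd4: tgtggAGGCCAGGAGAGGGCGCCAgatcc
Form 1, Ccdc50: gtaagTGACCAGCAGAGGGCACCAgatcc
Form 2, Snhg11: cccaaACGCCAGAAGAGGGCATCAgatcc
Form 2, Slc46a1: cctgcTTGCCAGAAGAGGGCACCAgatct
Form 2, Atp5o: cctgcGTGCCAGCAGAGGGCGTCAgatcc
The third family, Fam20b: tctcgTCTCCAGTTGGTGGCGCTGtttgg
The third family, Nsmce2: cttggTCCCCAGTAGGTGGTGCTGtttgg
The third family, AI597479: cttggTCCCCAGCAGGTGGCGCTGtttgg

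In mm10 coordinates, the Tmco5b motif lies at chr2:113305531-113305549 on the plus strand, in intergenic sequence 19806 bp from the TSS, and its bases equal the consensus of form 1. The signal of this peak lay at percentile 99.6 of the optimal list. The Nedd4 motif (chr9:72672566-72672584, minus strand) lies in an intron of that gene, which encodes a ubiquitin ligase. The Ccdc50 motif (chr16:27457476-27457494, minus strand) scored 22.1, the highest of the 9. The Snhg11 motif of form 2 (chr2:158379945-158379963, minus strand) is intronic, and its peak reached percentile 99.6. The Slc46a1 motif (chr11:78453846-78453864, plus strand) and the Atp5o motif (chr16:91935337-91935355, minus strand) are intergenic, with peaks at percentiles 98.8 and 98.7. The 3 of the third family, which has far fewer members to choose from, had lower signals: Fam20b (chr1:156752537-156752555) stood at percentile 92.2, Nsmce2 (chr15:59397379-59397397) at 90 and AI597479 (chr1:43110753-43110771) at 84.2.

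Members were 22.1% of the optimal peaks, against 33.5% of the called bases of the same chromosomes. Each library alone gave a similar value, with 20.9% of the upper set of replicate 1 and 22.3% of that of replicate 2. By chromosome the share ran from 18.7% to 26.1%, the highest on chromosome 5 (1178 of 4514 peaks), and on all 19 it was below that chromosome's soft-masked share of bases. The share depended on how strong the peak was. In the lowest 10% of the list by signal 27.3% of peaks were members [26.2 to 28.4], and in the second decile 32.8%. From there it fell to 24.4% in the sixth decile and to 5.75% [5.21 to 6.34] in the highest. The same fall appeared in the upper set of replicate 1, from 29.0% in the second decile to 5.38% in the tenth, and in that of replicate 2, from 30.5% to 6.27%.

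**Figure D1:**
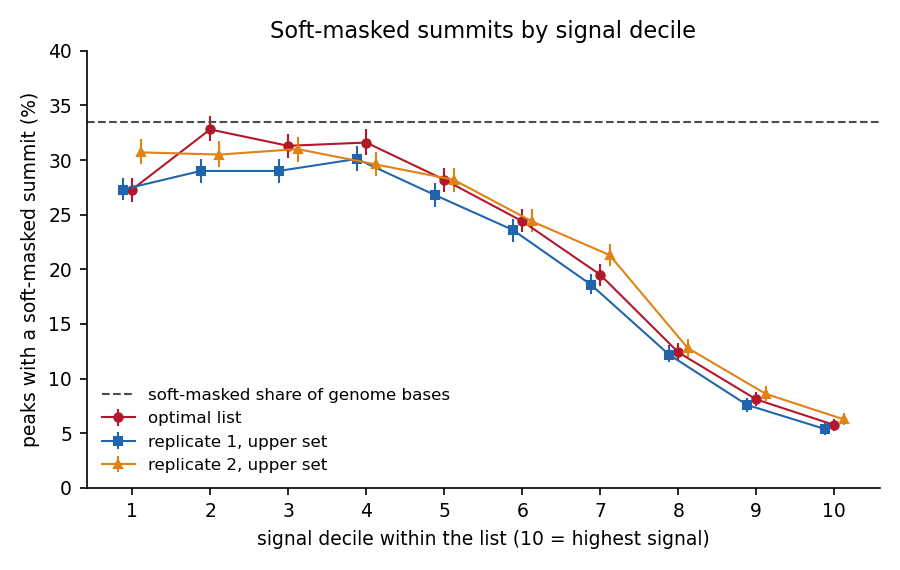
Percentage of peaks with a soft-masked summit (vertical axis) in each signal decile (horizontal axis, 10 is the highest) of the optimal list and of each library's upper set; bars are 95% Wilson intervals and the dashed line is the soft-masked share of genome bases, 33.5%. In all 3 series the share stays between 26.8% and 32.8% up to the fifth decile and then drops to between 5.38% and 6.27% in the tenth.

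The median member had a signal at percentile 35.9 of the optimal list, and the middle 50% of members lay between 18.3 and 55.7. The median of other peaks was 55.4, with the middle 50% between 27.8 and 79.4. The difference of medians was -19.5 percentile points in the optimal list, -18.6 within the upper set of replicate 1 and -18.8 within that of replicate 2, so both libraries gave nearly the same difference. In the much longer list made from pooled libraries, 6.10% of the 10000 highest peaks had a soft-masked summit, 31.7% of those ranked 50001 to 60000, and 22.9% of those ranked 250001 to 260000. Peaks far down that list held fewer soft-masked summits than those near the length of the optimal list.

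The families were built from members, so a higher share of members than of other peaks in them follows in part from how they were made. Of the members, 10545 (74.7% [74.0 to 75.4]) aligned to the motif family within 50 bp of the summit, against 1761 of the other peaks (3.54% [3.38 to 3.71]) and 19.3% of all optimal peaks. Form 1 held 6708 members and form 2 held 3837. The second family, whose consensus holds no match, took 161 members (1.14%) and 144 other peaks (0.289%). Of these members 69 (42.9%) had a match within 100 bp of the summit. The third family took 140 members (0.992%) and 249 other peaks (0.501%). Of all optimal peaks in the motif family, 85.7% had a soft-masked summit, so masking and family overlap but are not the same. Across the whole list, 27% of the 38684 peaks with a motif match lay in the motif family. In the third signal decile this share was 50.9%, and in the highest it was 2.22%.

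The other 3268 members (23.2%) matched none of the families. In this group the soft-masked run around the summit was short, with a median of 25 bp, against 89 bp for members of the motif family. All 36-base words (36-mers) within 100 bp of the summit occurred once in the genome for 2651 of them (81.1%). Where such a member had a motif match, at least 1 of the 19 motif bases was soft-masked in 1812 of 1970 cases (92.0%), and the whole motif in 986 (50.1%). Unique 36-mers do not tell whether a base lies in an old repeat, since 73.1% of form 1 members were unique in the same way. Which repeats these members lie in, if any, was not tested.

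The CTCF motif was found beside 11345 of 14114 members (80.4% [79.7 to 81.0]), against 27339 of 49742 other peaks (55.0% [54.5 to 55.4]) and 60.6% of all optimal peaks. A match here is a score of at least 13.94, passed by 1 in 10000 positions of windows 2 kb away. In those windows 2.18% and 1.70% of peaks of the 2 classes had a match. On even-numbered chromosomes, from which the matrix was not learned, the shares were 79.8% and 55.2%. Replicate 1 gave 80.3% and 55.3%, and replicate 2 gave 76.5% and 52.3%. The difference between classes was thus several times the difference between libraries. It narrowed with a stricter score passed by 1 in 100000 positions, which 14.4% of members and 12.2% of other peaks reached.

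The difference in matches was largest among weak peaks. In the lowest signal decile 64.5% of members and 17.3% of other peaks had a match. In the fifth decile the shares were 84.2% and 44.1%, and in the highest decile 96.0% and 90.1%. Membership of the motif family rose from 73.8% of members in the lowest decile to 80.7% in the fifth, and fell to 30.1% in the tenth. Within the family 87.2% of members had a match, and without a family 60.3% did, beside 54.3% of other peaks without a family. Family building began with members that held a match, so a high share within the family follows in part from that. The distance from motif centre to summit was short in both classes, with a median of 6 bp for members and 5 bp for other peaks.

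**Figure D2:**
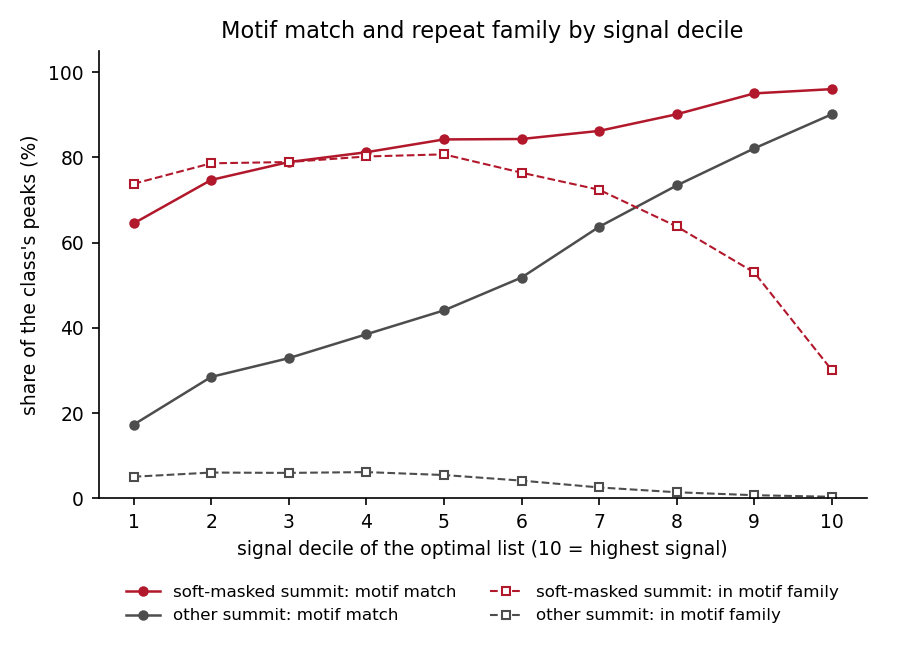
Share of each class's optimal peaks (vertical axis, %) with a motif match (filled circles) or aligned to the motif family (open squares) in each signal decile (horizontal axis), for peaks with a soft-masked summit (red) and other peaks (grey). The 2 circle lines lie far apart in decile 1, at 64.5% and 17.3%, and close together in decile 10, at 96.0% and 90.1%, where the family share of members has fallen to 30.1%.

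Among peaks with a match, the motif scores of both classes were alike at the middle and differed at the top. The median score was 17.0 for members and 17.1 for other peaks, a difference of -0.15, and it was -0.13 in replicate 1 and -0.25 in replicate 2. The 10% of members with the best matches scored at least 19.8, and the 10% of other peaks at least 20.6. At a similar median score the signals differed: members with a match had a median percentile of 38.6 and other peaks with a match 72.2. Without a match the medians were 25.6 and 34.7. Members were also poorer in G and C, with a median of 45.3% G+C within 100 bp of the summit against 50.2%, and whether that bears on the signal was not tested.

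The forms differed from each other. Form 1 members matched their consensus with a median identity of 75.2%, and 84.6% held a motif match. Form 2 members were closer copies, with a median identity of 85.6%, and 91.7% held a match. The signal had a median percentile of 39.1 in form 1, 26.4 in form 2 and 30.8 in the third family. The upper sets of both libraries held 76.5% of form 1 members and 60.4% of form 2 members. The forms also differed in how often their sequence recurs: the median share of unique 36-mers within 100 bp of the summit was 100% for form 1 and 74.7% for form 2. Reads from recurring sequence cannot be placed at 1 position, and neither the read length nor the treatment of such reads is given in the sources used here.

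Most members nevertheless lay in sequence that is unique at the length of 36 bases. All 36-mers around the summit occurred once for 7941 members (56.3%), against 93.4% of other peaks. With 50-mers the shares were 78.8% and 97.2%. In only 486 members (3.44%) were fewer than 50% of the 36-mers unique.

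The libraries ranked members of recurring sequence differently. Of the 486 members with fewer than 50% unique 36-mers, 39.5% lay in the upper set of replicate 1 and 87.4% in that of replicate 2. With 50% to under 80% the shares were 63.4% and 83.3%. With all 36-mers unique the order was reversed, at 92.2% and 80.3%. That is also the order of the other peaks, at 92.4% and 84.0%, and 93.4% of these had all 36-mers unique. The 137 other peaks with under 50% unique 36-mers were not compared in this way. The percentile within the library's whole list was higher in replicate 2 for 415 of 468 members of the first group that both libraries listed (88.7%), and for 3334 of 7705 members with unique sequence (43.3%). Of the 2080 members with 50% to under 80%, 1848 were of form 2, and the upper sets held 60.9% and 84.7% of these. Form 1 (78 members) had 82.1% and 76.9% there, and members without a family (135) had 83.0% and 69.6%. With under 50%, the 433 of form 2 had 36.5% and 88.2%, and the 39 without a family 71.8% and 84.6%. Values of form 2 on recurring sequence thus differed most between the libraries, and why was not tested. Over 13744 members listed in both libraries, Spearman's rho between the library percentiles was 0.78, and over 48474 other peaks it was 0.93. Among members with all 36-mers unique, rho was 0.86, and with under 50% unique it was 0.38. These correlations describe peaks of the same optimal list, which cover a narrower range of signal among members.

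**Figure D3:**
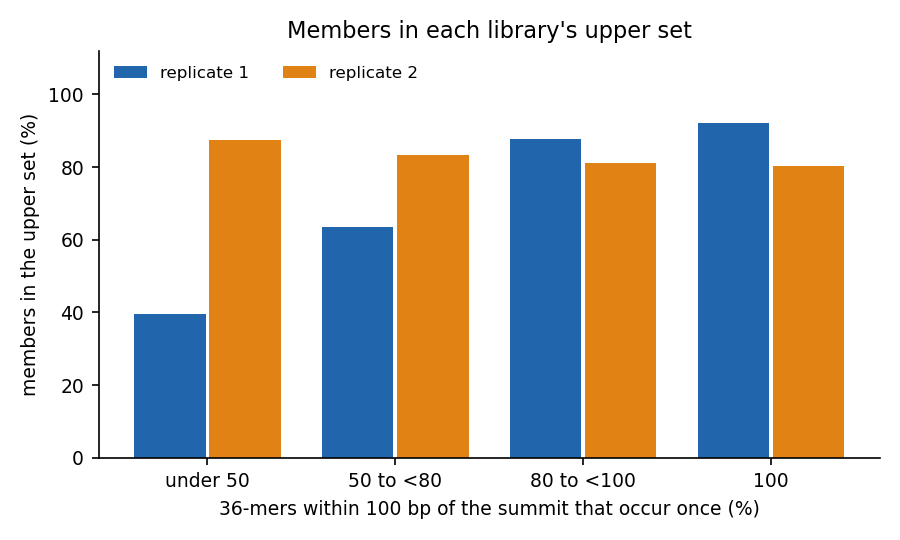
Percentage of members found in the upper set of each library (vertical axis, from 0) by the share of unique 36-mers within 100 bp of the summit (horizontal axis), for replicate 1 (blue) and replicate 2 (orange). In the leftmost group the bars stand at 39.5% and 87.4%, and in the rightmost at 92.2% and 80.3%.

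Members were less often held by both libraries than other peaks. Of the members, 10057 (71.3% [70.5 to 72.0]) overlapped a peak of both upper sets, against 80.6% of other peaks and 78.5% of all optimal peaks. The conservative list, the authors' stricter selection, held 78.8% of members, 85.1% of other peaks and 83.7% of all. Here a peak had to have the same interval and summit in that list, and overlap alone did not count. Within signal deciles the gap to other peaks was seen only in the lowest, where both upper sets held 3.98% of members and 9.72% of other peaks. In the third decile they held 67.6% and 64.5%, and in the fourth 90.8% and 86.7%. From the eighth decile on, both classes rounded to 100%.

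Not every copy of the family had a peak. On chromosomes 1 to 19 there were 226511 copies whose alignment covered the motif, 125377 of form 1 and 101134 of form 2, and 11893 of them (5.25%) had an optimal summit within 100 bp of the motif. The upper set of replicate 1 gave 4.98% and that of replicate 2 gave 5.21%. Only 24.4% of the copies, 55262, reached the score of a match. Of the copies with a match 18.1% had a peak, and of the 171249 without a match 1.11% did. The consensus from which copies were found was built from peaks, so it leans toward bases that copies with a peak hold.

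Copies with a better motif more often had a peak. In form 1, 0.407% of copies scoring under 8 had one, 9.24% of those scoring 12 to under 14, 44.5% of those scoring 16 to under 18, and 78.4% [75.4 to 81.0] of the 818 copies scoring 20 or more. In form 2 the shares were 0.260%, 1.11%, 25.6% and, for 76 copies, 89.5% [80.6 to 94.6]. Up to a score of 20 form 2 lay below form 1 at each step of the optimal list and of replicate 1, and of replicate 2 except under a score of 8, where form 2 had 0.386% and form 1 had 0.325%. In replicate 1 the step from 16 to under 18 gave 45.6% for form 1 and 19.5% for form 2, and in replicate 2 it gave 38.1% and 29.3%.

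**Figure D4:**
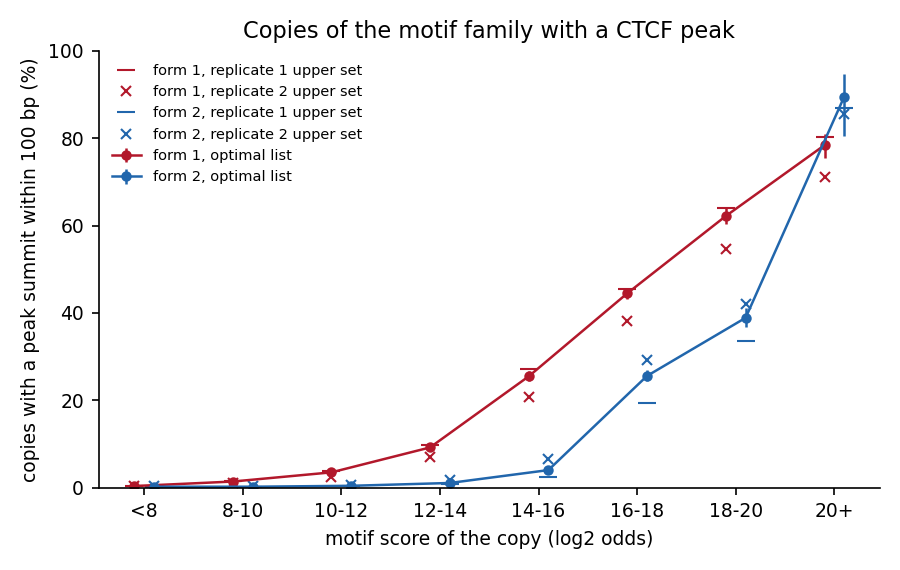
Percentage of genomic copies of each form with a peak summit within 100 bp of the motif (vertical axis) by the copy's motif score (horizontal axis, log2 odds); circles are the optimal list with 95% Wilson intervals, dashes the upper set of replicate 1 and crosses that of replicate 2. Form 1 rises from 0.407% to 78.4%, and form 2 stays lower until the last step, where it reaches 89.5%.

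The gap between forms was much smaller among copies in unique sequence. Over all copies with a match, 42.3% of form 1 and 8.37% of form 2 had a peak, and the median share of unique 36-mers around these copies was 100% and 48.8%. Restricted to copies with all 36-mers unique, the values were 44.6% [43.6 to 45.5] of 10758 and 38.7% [34.1 to 43.5] of 406. At scores of 16 to under 18 they were 46.8% and 48.9%, and at 18 to under 20 they were 65.5% and 61.9%, with intervals that overlap at both steps. At 14 to under 16 form 1 had 27.8% [26.4 to 29.3] and form 2 had 21.7% [16.4 to 28.1]. The 406 form 2 copies are few of the 39420 with a match. Their median identity to the consensus was 76%, against 89% for all of these. Whether their values hold for form 2 in general was not tested. For the family as a whole, 2.2% of copies with a match and under 50% unique 36-mers had a peak, 11.3% with 50% to under 80%, 34.2% with 80% to under 100%, and 44.4% with all unique. In the lowest of these groups replicate 1 gave 0.690% and replicate 2 gave 5.11%, and with all 36-mers unique they gave 46.1% and 37.7%. How many copies in recurring sequence were bound without a peak being called was not tested.

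Identity to the consensus was compared in the same way. Over all copies of the family with a match, 41.1% of those at 75% to under 80% identity had a peak, 27.1% at 80% to under 85%, 6.73% at 85% to under 90% and 3.52% at 90% or more, where the median share of unique 36-mers had fallen to 41%. Identity and form went together here, with a median identity of 74.6% for form 1 copies with a match and 89% for those of form 2. Among form 1 copies in unique sequence no fall was seen up to a last step of 80% or more. Only 868 of these 10758 copies reached that step, so they cannot show whether a fall occurs above 85%. Of form 1 copies with a match and all 36-mers unique, 43.6% of those under 70% identity had a peak, 42.6% at 70% to under 75%, 45.5% at 75% to under 80%, and 53.0% [49.7 to 56.3] at 80% or more. Masking showed no difference beyond its intervals: 44.5% [43.5 to 45.5] of these copies had a peak where the motif centre was soft-masked and 45.5% [42.5 to 48.5] where it was not. Copies within 1 kb of a protein-coding TSS had a peak in 54.6% [49.7 to 59.5] of 399 cases, against 45% of intronic and 43.1% of intergenic copies.

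The many copies also show what single base changes go with. Among form 1 copies in unique sequence, 558 held exactly the consensus motif, and 279 of them (50% [45.9 to 54.1]) had a peak. Copies that differed from it by 1 base were compared with these, naming the consensus base first and the copy's base last. For several changes in the core, few copies had a peak. C5T was found with a peak in 0 of 36 copies, G10A in 0 of 54 and G14A in 0 of 85, and these counts allow shares of up to 8.33%, 5.56% and 3.53%. G12A had a peak in 2 of 102 (1.96%), G13A 3 of 77 (3.90%), C4T 14 of 188 (7.45%) and C15T 8 of 83 (9.64%). Other changes at the same positions were less rare among peaks, for example G12T, with a peak in 28.3% of copies, and G14T, in 20.7%.

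Of the changes toward the matrix's most frequent base, T17C, A8C and A1T had intervals above that of the consensus, and those of A11G and A16G overlapped it. T17C, at the position of the costliest difference, was found in 143 copies, 100 of which had a peak (69.9% [62.0 to 76.8]), with 71.3% in replicate 1 and 65.7% in replicate 2. T17G, which leads to a base other than the most frequent one but also raises the score, gave 41 of 47 (87.2% [74.8 to 94]), with 85.1% and 83.0% in the libraries. A8C gave 34 of 38 (89.5% [75.9 to 95.8]), A1T 36 of 53 (67.9% [54.5 to 78.9]), A11G 35 of 55 (63.6% [50.4 to 75.1]) and A16G 94 of 155 (60.6% [52.8 to 68.0]). C18T did not follow this order: it raises the matrix score from 17.0 to 17.2, yet 44 of 122 such copies had a peak (36.1% [28.1 to 44.9]). With recurring sequence included but no other base changed, 51.6% of form 1 copies with the consensus motif had a peak. All 6 changes stayed above it: A8C had 86.0%, T17G 83.6%, T17C 69.9%, A1T 69.4%, A11G 61.2% and A16G 58.4%. Over all form 1 copies, which may also differ at any number of other positions, several of these orders turned. A peak was found at 3.88% of copies with C at position 8 (A8C) and 7.57% with the consensus base, at 5.50% for A1T against 7.69%, and at 4.94% for A11G against 7.18%. T17G turned too, with 4.16% against 5.98%. T17C and A16G stayed above the consensus base, at 11% against 5.98% and 8.37% against 7.44%.

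Over a wider set of form 1 copies, those with at most 3 other differences, the same positions stood out. At position 5 a peak was found at 21.8% of copies with the consensus base and 0.228% with another, and at position 10 at 22.2% and 0.580%. Position 17 went the opposite way, with 15.8% for the consensus base and 37.4% for others. Positions 11 and 16 differed little, at 20.3% and 19.7%, and 19% and 19.3%. Form 2 copies, of which far fewer lay in unique sequence, had 16.9% and 3.14% at position 4, 16.2% and 0 of 133 (a share of up to 2.26%) at position 13, and 13% [10.8 to 15.7] and 26.4% [20.8 to 32.9] at position 17. Positions 1, 2 and 3 of form 2, where its consensus departs from the matrix, also had more peaks with another base, for example 8.36% against 21% at position 2.

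**Figure D5:**
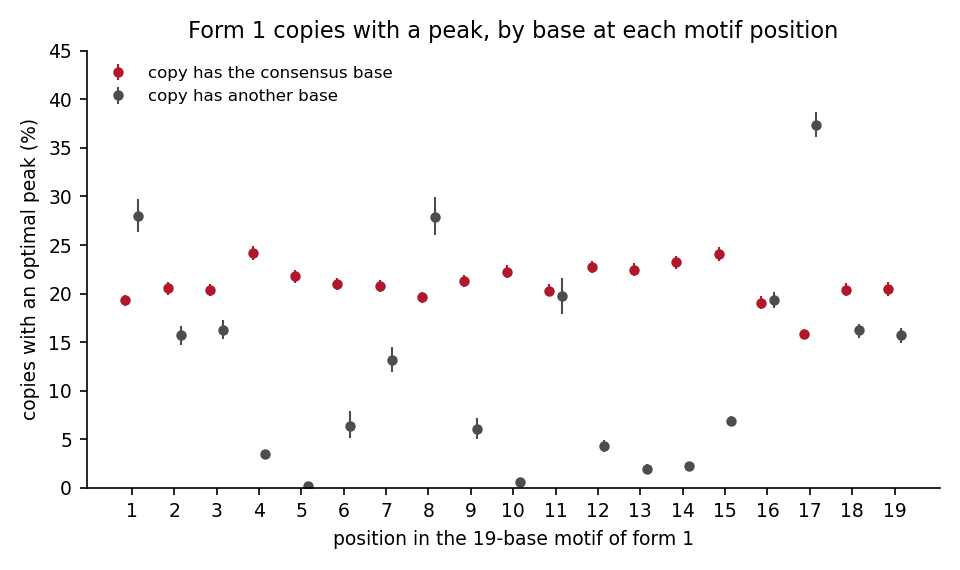
Percentage of form 1 copies in unique sequence that had an optimal peak (vertical axis) by position in the 19-base motif (horizontal axis), for copies with the consensus base there (red) and with any other base (grey), at most 3 differences elsewhere; bars are 95% Wilson intervals. Grey points lie near 0 at positions 5 and 10, at 0.228% and 0.580%, and well above the red point at positions 1, 8 and 17, most at 17 with 37.4% against 15.8%; at position 16 both nearly coincide.

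Exact motif strings separated the forms as well. The most frequent motif among all copies was the consensus of form 2, ACACCAGAAGAGGGCATCA, with 11168 copies, of which 3.28% had a peak (1.73% in replicate 1 and 6.12% in replicate 2). The motif ACTCCAGAAGAGGGAGTCA, with 5686 copies, scored 12.5 and had a peak in 0.422%. The consensus of form 1, AGGCCAGAAGAGGGCATCA, was held by 1327 copies, and 51.9% had a peak. The median share of unique 36-mers was 47.6%, 18.7% and 98.8% for these 3 strings. Only 26 copies with the consensus motif of form 2 lay in unique sequence, and 5 of them had a peak (19.2% [8.51 to 37.9]).

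Members lay near promoters less often than other peaks. A summit within 1 kb of a protein-coding TSS was found for 995 members (7.05% [6.64 to 7.48]), 9696 other peaks (19.5% [19.1 to 19.8]) and 16.7% of all optimal peaks. Replicate 1 gave 6.94% and 18.8%, and replicate 2 gave 7.85% and 20.2%. Fewer soft-masked bases lie there to begin with, 2.15% of them against 4.83% of other bases, so members stood above the share of bases, as other peaks did. Introns held 47.1% of members and 34.8% of other peaks, beside 30.5% of soft-masked and 37.7% of other bases. Coding exons held 0.305% of members and 2.23% of other peaks, beside 0.145% and 1.47% of the bases. Intergenic sequence held 43.3% and 40.7%, beside 66.2% and 53.8% of the bases. Of the members near a promoter 61.9% belonged to the motif family, against 1.11% of the other peaks there. Form 2 members were within 1 kb of a TSS more often than form 1 members, in 8.26% against 4.46%. Of all 226511 copies of the family 9058 lay there, and whether the copies of the forms differ in the same way was not tested. Among members of the family inside introns of genes on 1 strand, the motif read along the gene's strand in 2425 of 4490 cases (54.0% [52.5 to 55.5]), and among other peaks with a match in 47.1%.

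Members were spaced like other peaks. Another optimal summit lay within 5 kb of 44.5% of members, 44.4% of other peaks and 44.4% of all optimal peaks. They followed each other slightly more often, since the next peak along the chromosome was a member after 26.5% of members and after 20.8% of other peaks.

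The strongest members were mostly not copies of the families. The highest-signal member lay in an intron 1764 bp from a TSS of Fpgs, which encodes the enzyme that adds glutamates to folate, at chr2:32689410-32689795, and ranked 39 in the whole list. It was at percentile 100 in each library. Another of the 10 strongest lay 2148 bp from a TSS of Nemp1, a gene of a nuclear envelope protein. The Nemp1 summit was the only 1 of the 10 without a match, with a best score of 13.4, and the only 1 with recurring sequence (65.1% of 36-mers unique). Others of the 10 were near Cln6, whose product resides in the endoplasmic reticulum, Psrc1, Nfatc4, which encodes a calcium-regulated transcription factor, 2300002M23Rik, Gm4131, Gm45716 and Camkmt. None of the 10 aligned to a family, their soft-masked runs were 20 to 50 bp long, and all stood at percentile 99.6 or higher. Of the 5 strongest members within 1 kb of a TSS, the first were those at Cln6 (856 bp) and Nfatc4 (509 bp). Those at Aspg (981 bp), Dusp13 (488 bp), a phosphatase gene, and Cyp2w1 (847 bp), a cytochrome P450 gene, followed, at percentiles 99.6, 99.2 and 98.2. None of these 5 aligned to a family either.

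Members were also counted around genes of kidney cell types and of loci known for CTCF binding, in each gene's span plus 10 kb on each side. Around all protein-coding genes together 22.5% of peaks were members. Podocytes, the cells of the filter, had 19 members among 107 peaks (17.8% [11.7 to 26.1]). The strongest, at percentile 83.5, lay outside Nphs1, the gene of the slit diaphragm protein nephrin, 8041 bp from its nearest TSS; a TSS of the neighbouring gene Prodh2 lay closer, at 666 bp. It is a form 1 copy with a match, and stood at percentiles 96.7 and 96.1 of the libraries' whole lists. Ptpro, a podocyte phosphatase gene, had a form 1 member at percentile 77.7. The sequence of the Nphs1 site is shown because it is the strongest member counted for podocyte genes, and it was chosen after its value was seen; the motif lies at chr7:30492952-30492970 on the minus strand.
Form 1, between Nphs1 and Prodh2: cacaaTGGCCAGAAGAGGGCATTAgatcc

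Genes of nephron progenitors had 10 members among 73 peaks (13.7%), among them a form 1 copy 6439 bp from a TSS of Six2, which keeps progenitors from differentiating, at percentile 46.0, and a member without a family in an intron of Pax8 at 55.1. Proximal tubule genes had 21 of 92 (22.8%), the strongest beside the urate transporter gene Slc22a12 (81.3) and the amino acid transporter gene Slc7a7 (69.5, form 2, with a TSS of Mrpl52 closer). Loop and distal tubule genes had 9 of 92 (9.78% [5.23 to 17.6]), with a form 1 member at the tight junction gene Cldn10 at percentile 63.4. Collecting duct genes had 4 of 58 (6.90% [2.71 to 16.4]), with Slc4a1 at 49.7 (a TSS of Ubtf lay closer) and Etv5 at 42.4. Of stromal genes 15 of 99 peaks were members (15.2%), 5 of them within 10 kb of Gli1. The strongest of these, without a match and at percentile 63.2, lay inside the neighbouring gene Arhgap9, 360 bp from a TSS of that gene and 12372 bp from one of Gli1. Smoc2 had a member at 58.6. Endothelial genes had 20 of 83 (24.1%), and their strongest, at Eng, is the same peak as the one at Fpgs. Erg followed at percentile 72.2. Immune genes had 9 of 52 (17.3%), with one at 94.1 where Cx3cr1 and Ttc21a overlap, 1828 bp from a TSS of Ttc21a, and one near Lyz2 at 62.0.

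At loci known for CTCF binding, imprinted genes had 13 of 87 peaks (14.9% [8.95 to 23.9]), and the strongest was a form 1 copy at percentile 92.7 that lay within reach of both Phlda2 and Slc22a18. Hox genes had 3 of 49 (6.12% [2.10 to 16.5]), the strongest being a second-family copy without a match at Hoxa3 and Hoxa4, at percentile 50.6. The clustered protocadherin genes, whose alternative promoters CTCF is known to bind, had 0 of 48, which allows a share of up to 6.25%. Genes of cohesin and of proteins that work with CTCF had 18 of 73 (24.7% [16.2 to 35.6]), with form 1 copies in Bptf (percentile 88.5) and within 10 kb of Chd8 (71.2), both genes of chromatin remodelers; the latter lies in an intron of Supt16. For 8 of the 12 lists the interval held the 22.5% found around all genes. It lay below for 4, those of loop and distal tubule, collecting duct, Hox and clustered protocadherin genes. These intervals count each peak as independent, though peaks around clustered genes share a locus. The lists were not matched for signal, with which the share of members varied, and whether that bears on the 4 was not tested.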

How the data were processed

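CTCF was measured in 2 libraries of newborn mouse kidney. Per the file headers and the labels, the authors deposited 5 peak lists in narrowPeak layout on mm10: optimal, conservative, pooled and 1 per library. No aligner, peak caller or irreproducibility threshold is given in the sources used here. The authors' signal values were used only as ranks within a list, since they depend on depth, and the deposited score column was not used. The deposited −log10 q-value ranked nothing, because 58529 optimal peaks share its highest value. The control experiment named in the labels was not analysed here.

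Summits were read against the GRCm38.p6 sequence and GENCODE M21 (20807 protein-coding genes), in 1-based mm10 coordinates. Peaks on X, Y and unplaced contigs were not used. Families were built from members with blastn 2.17.0 (word size 11, E-value 1e-05) and accepted at 100 members. Which related consensuses count as 1 family was decided after seeing them, as were the comparisons of single bases, of uniqueness and of identity. Unique k-mers were counted on chromosomes 1 to 19, X and Y. Shares have Wilson intervals, and a count of 0 has a limit of 3 counts. Scripts ran in Python 3.11.15 (scipy 1.17.1, pandas 2.3.3, numpy 2.4.6, matplotlib 3.10.9). Motif learning, family building and k-mer counting were tested on simulated data.

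The members and lists were chosen with earlier results of these data known. Named are the 10 strongest members, the 5 strongest within 1 kb of a TSS, up to 2 genes per list with the strongest member within 10 kb, and, for sequences, the 3 strongest members with a match per form and in the third family. Alternatives left out each library, used the conservative list, called a peak a member where at least 50% of the bases within 50 bp of the summit were soft-masked, left out peaks within 500 bp of a stronger one, or changed the motif score, window, E-value, distances and k. Of the members named by rank or by gene list, 2 are not reported here.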

Additional observations from a re-analysis of the deposited data

How the results depend on the processing

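No paired analysis was possible because there is 1 group. No value turned its direction. Leaving out a library (using the other's upper set) gave 20.9% to 22.3% for the share of members, -18.8 to -18.6 for the signal difference, 76.5% to 80.3% for matches in members and 52.3% to 55.3% in other peaks, and -0.25 to -0.13 for the score difference. It gave 73.0% to 73.6% for the motif family, 4.98% to 5.21% for copies with a peak, 6.94% to 7.85% for members near a TSS, 98.8% to 100% for unique 36-mers and 43.4% to 48.5% for a neighbour within 5 kb. With the conservative list the signal difference was -20.9, matches in other peaks 57.3% and copies with a peak 4.54%. Where at least 50% of the bases within 50 bp of the summit had to be soft-masked, members were 17.9%, the signal difference -22.4, the upper sets of both libraries held 68.8%, the conservative list 77.0%, the motif family 86.1%, and 6.20% lay near a TSS. Without peaks near a stronger one the signal difference was -20.3. An overlap of 50% of the peak gave 69.6% in both upper sets. The stricter motif score gave 14.4% and 12.2%, and a score difference of -0.50. A window of 50 bp gave 77.5% of members with a match. An E-value of 1e-10 gave 69.2% in the motif family, and summits within 50 bp of the motif gave 5.08% of copies. Promoters of 2500 bp held 17.8% of members and 27.6% of other peaks, and 82.1% of members had a neighbour within 20 kb. Of all values compared, 27, some of them given above, moved by less than the spread between libraries or, where each library has no value of its own, less than the counting interval.

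Depth is unknown, and only 2 libraries of 1 donor were available, so no difference between animals can be seen. Peaks in recurring sequence depend on how reads with several possible places were treated, which is not given in the sources used here. A copy without a peak is a copy where none was called.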
